A study of Mus musculus with 17 samples.

Results

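The transcriptome of skin innate lymphoid cells (ILCs) taken after tamoxifen-induced loss of Gata3 was compared with that of wild-type ILCs by bulk RNA sequencing. The libraries were taken by their titles, Gata3KO_1 and Gata3KO_2 (here KO_1 and KO_2) against WT_1 and WT_2, which are 4 of the 17 samples of the series. Every autosomal gene was in scope: 50225 of 54446 gene models lay on autosomes, 12844 of these had enough reads to be tested, and 37381 did not. Wild-type mice were C57BL/6, and knockout mice were Gata3fl/flCreERT2 on the C57BL/6 background. Another 10 libraries, of skin ILCs positive or negative for a fate-map reporter with intact or floxed Gata3 (Gata3flox), are used in a closing comparison. In the tamoxifen knockout genotype Gata3 is flanked by loxP sites, and the Cre recombinase acts after tamoxifen. Both genotypes received 3 intraperitoneal injections of 5 mg tamoxifen in corn oil, 1 every other day, so the drug is shared by these 4 libraries while the floxed allele and the Cre are not. The cells were sorted from skin as live and CD90-positive, without lineage markers or the γδ T cell receptor. The labels name no promoter for the CreERT2 and no cell type to which it is limited, so loss of Gata3 in other skin cells cannot be told apart from loss in ILCs. They do not give the age of the mice, the time from the last injection to the sort, or whether the replicates were separate animals, and p-values therefore measure only the spread between these libraries.

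GATA3 is a zinc-finger transcription factor that binds GATA motifs in DNA. All ILCs need it early in their development, and group 2 ILCs (ILC2s) need it throughout life to express the type 2 cytokines IL-5 and IL-13 and the IL-33 receptor. ILC1s and NK cells use T-bet and make interferon gamma, and ILC3s make IL-17 and IL-22 in response to IL-23 and IL-1. In skin, ILCs sit near hair follicles and sebaceous glands and exchange signals with keratinocytes.

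Total counts were 14529540 and 16770525 in WT and 24576339 and 14676026 in the knockout, and 92.6% to 94.1% of them fell on autosomal genes. Spearman correlations across genes were 0.873 to 0.885 between libraries of different genotype, 0.891 within WT and 0.886 within the knockout. WT_1 stood apart in sex-linked transcripts. It had 94.6 CPM of Xist (CPM is the count scaled to the size of the library) and no counts of the Y-linked genes Ddx3y, Eif2s3y, Kdm5d and Uty, whereas the other 3 libraries had at most 0.207 CPM of Xist and 268 to 348 CPM of Ddx3y. Sex-linked genes lie outside the autosomal set. That limit does not remove an effect of sex on autosomal genes, which cannot be told apart from genotype as far as it comes from WT_1. The main counts are also given without WT_1. CPM values below are scaled with TMM factors, which correct for composition between libraries.

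Gata3 itself (ENSMUSG00000015619, chromosome 2, 9857078 to 9890034 on the mm10 build, minus strand) was read in all 4 libraries. Its level was 381 and 581 CPM in WT and 299 and 314 CPM in the knockout. Both knockout libraries were below both WT libraries, and the log2 fold change of −0.65 ± 0.26 (SE, n = 2 against 2) did not pass edgeR's quasi-likelihood test (adjusted p 0.742) or DESeq2 (adjusted p 0.346). Without 1 library the log2 fold change ranged from −0.92 to −0.30, and without WT_1 the DESeq2 adjusted p was 0.0459. Reads were summed over the whole gene, so a shortened transcript would be counted too, and which exons are floxed is not given in the sources used here. In bulk RNA, fewer cells that express a gene and less RNA in each cell cannot be told apart.

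Across the transcriptome the genotypes differed little relative to the spread within them. edgeR called 0 of 12844 autosomal genes at an adjusted p under 0.05 (0%), and the lowest adjusted p was 0.585. At an unadjusted p under 0.05, 893 autosomal genes differed (6.95%, and 6.89% over all 13272 genes tested): 357 were higher in the knockout (2.78%) and 536 were lower (4.17%). DESeq2, the alternative count test, called 193 of the 11839 autosomal genes it assigned an adjusted p (1.63%), 68 higher (0.574%) and 125 lower (1.06%). All 193 also had an unadjusted edgeR p under 0.05, and in all 193 both knockout libraries lay outside the WT range. That separation alone is common here, since 36.2% of the tested genes showed it (16.8% higher, 19.4% lower). For 73 of the 193 genes 1 genotype had no counts at all, and their fitted folds are not bounds. The balance of the DESeq2 calls followed the library left out. Without WT_1 there were 101 higher and 63 lower, and without WT_2 there were 78 higher and 36 lower. Without KO_1 there were 35 higher and 198 lower, and without KO_2 there were 27 higher and 152 lower. edgeR called 0 genes in each of these 4 fits. Since no gene passed the main test, genes are described below by their values, with the DESeq2 result beside them. An edgeR adjusted p stands at 0.585 or above for every gene.

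**Figure D1:**
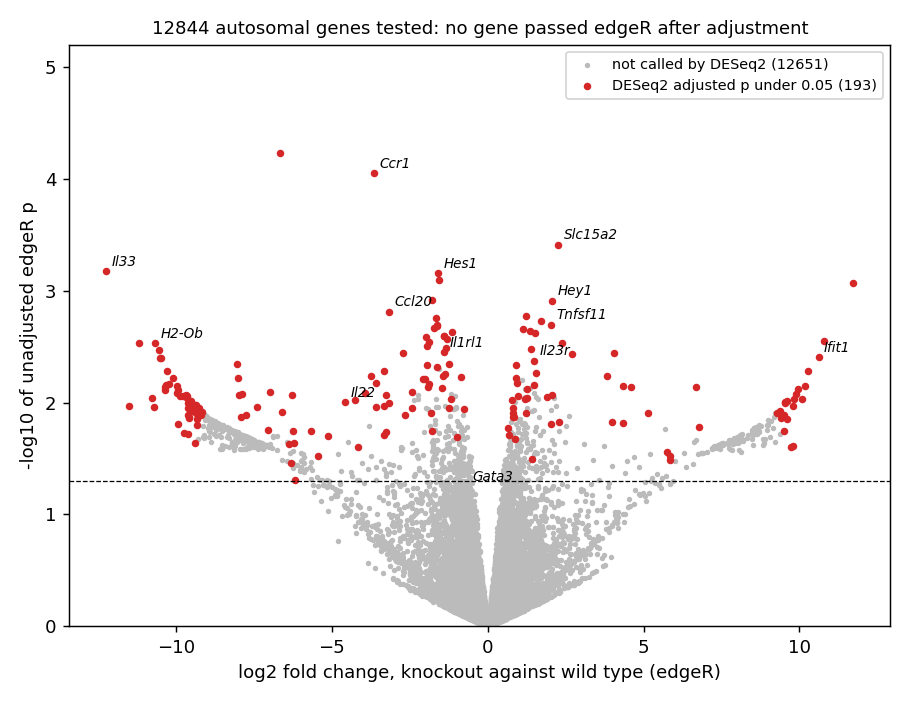
Log2 fold change of the knockout against wild type (x axis) and −log10 of the unadjusted edgeR p (y axis) for the 12844 autosomal genes tested, each point 1 gene. The 193 genes with a DESeq2 adjusted p under 0.05 are red and the dashed line marks an unadjusted p of 0.05; the red points at the far left and right are mostly genes without counts in 1 genotype.

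The genes that define ILC2s were lower in the knockout more often than higher. Of the 26 ILC2 list members tested, 21 had a negative log2 fold change, 6 were lower and 1 was higher at an unadjusted p under 0.05, and DESeq2 called 3 lower and 0 higher. Over all 12844 autosomal genes tested, 6611 had a negative log2 fold change. At that p 4.17% were lower and 2.78% higher, and DESeq2 called 1.06% lower and 0.574% higher. These shares are the baseline for every list below. The median log2 fold change of the ILC2 list was −0.67, against −0.02 over all autosomal genes tested. It ranged from −1.12 to −0.35 when each library was left out. This and all other list medians were the same with genes that have no counts in 1 genotype set at their bound.

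The members that DESeq2 called lower were Calca, Il1rl1 and Klrg1. Il1rl1 encodes ST2, the receptor for the alarmin IL-33, and had 78.2 and 76.2 CPM in WT against 31.7 and 26.7 CPM in the knockout. The WT libraries were near equal and the knockout libraries lay well below them, with a log2 fold change of −1.40 ± 0.27 (SE; DESeq2 adjusted p 0.0295). Klrg1, an inhibitory lectin receptor of mature ILC2s, had 36.7 and 59.5 CPM in WT and 14.4 and 11.4 CPM in the knockout (log2 fold change −1.89 ± 0.43, DESeq2 adjusted p 0.0416). The DESeq2 calls of both genes were lost without any 1 of the 4 libraries, with adjusted p up to 0.469 for Il1rl1 and 0.794 for Klrg1. Calca, which encodes the neuropeptide CGRP, had 256 and 648 CPM in WT and 142 and 114 CPM in the knockout (log2 fold change −1.82 ± 0.48, DESeq2 adjusted p 0.00232). Its call was lost without WT_2 (adjusted p 0.229). Ltb4r1, a leukotriene B4 receptor singled out after its values were seen, had 43.5 and 56.9 CPM against 23.4 and 17.8 CPM.

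The type 2 cytokines were lower in both knockout libraries than in both WT libraries, but WT_2 was far above WT_1 and no test on all 4 libraries passed. Il5, the eosinophil growth factor, had 873 and 2238 CPM in WT and 552 and 810 CPM in the knockout. KO_2 thus lay just under WT_1, and the log2 fold change of −1.19 ± 0.49 became −0.35 without WT_2. Il13 had 11.3 and 34.5 CPM in WT and 6.76 and 7.49 CPM in the knockout, and its log2 fold change of −1.69 ± 0.72 became −0.66 without WT_2. Il4, which lies beside Il13 on chromosome 11, had 28.1 and 70.5 CPM in WT and 14.6 and 16.9 CPM in the knockout (log2 fold change −1.65 ± 0.54, −0.83 without WT_2). Areg encodes amphiregulin, an epidermal growth factor receptor ligand that acts on epithelium. It had 264 and 878 CPM in WT against 244 and 160 CPM in the knockout (log2 fold change −1.498 ± 0.603, −0.38 without WT_2). For these 4 genes the WT libraries differed from each other by more than WT_1 differed from the knockout, and DESeq2 adjusted p ran from 0.0778 for Areg to 0.587 for Il13. Without WT_1, DESeq2 called Il5 (adjusted p 2.20e-08) and Areg (adjusted p 5.10e-09), and it also called Il5 without KO_2 (adjusted p 0.0311) and Areg without KO_1 (adjusted p 0.0277). Csf2, which encodes GM-CSF, had 245 and 293 CPM in WT and 187 and 275 CPM in the knockout, so the genotypes overlapped.

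For most of the further ILC identity genes examined the genotypes overlapped. With 2 libraries a genotype, overlap does not show an unchanged level. Icos, a costimulatory receptor, had 3423 and 6877 CPM in WT and 5040 and 4205 CPM in the knockout. Rora, a transcription factor needed for ILC2 development, had 2005 and 2675 CPM in WT and 2285 and 2315 CPM in the knockout. The genotypes overlapped for both, as they did for Il7r (interleukin 7 receptor), Il2ra (CD25), Id2, Tcf7, Zbtb16, Maf and Il17rb (the IL-25 receptor), with log2 fold changes from −0.27 for Zbtb16 to 0.40 for Maf. Id2 alone of these was called by DESeq2 when a library was left out (adjusted p 0.0422 without WT_2). The WT libraries lay far apart for some. Il17rb had 36.2 and 3.001 CPM in WT and 15.7 and 17.2 CPM in the knockout. Il2ra had 353 and 762 CPM in WT and 591 and 541 CPM in the knockout. The standard errors of Zbtb16 (0.93) and Il17rb (1.11) leave large differences possible. Bcl11b, a zinc-finger factor of ILC2s and T cells, had 54.1 and 34.4 CPM in WT and 72.9 and 62.7 CPM in the knockout (log2 fold change 0.62 ± 0.33). Gfi1, a repressor known to promote ILC2 development and singled out after its values were seen, had no counts in WT and 4.07 and 1.79 CPM in the knockout.

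The promoters of genes of the type 2 programme were searched for GATA motifs, beside those of all genes. The spelling AGATAA was searched on both strands, as were the variant AGATAG that ends in another base, the variant TGATAA that opens with another base, and TGATAG with both changes. The windows were the RefSeq promoters on GRCm38.p6, 250 bases before and 50 bases from each gene's start. At least 1 match lay in 29.5% of the 31396 autosomal promoters, in 18.8% of those of tested genes, and in 37.9% of the 29 promoters of the 21 ILC2 list genes that had an entry. A match lay in 12.5% of the 24 promoters of the type 17 list and in 57.1% of the 7 promoters of the class II list. Among the genes at an unadjusted p under 0.05 the share was 22.5% for the lower and 19.4% for the higher. A match is a spelling and not a bound site. The 250 bases before the start of Il5 (chr11:53720544-53720793, plus strand), Il13 (chr11:53634703-53634952, minus strand) and Il1rl1 (chr1:40429320-40429569, plus strand) are printed 5′ to 3′ with the matches in capitals, because these genes are the cytokines and the alarmin receptor by which ILC2s are known.
Il5: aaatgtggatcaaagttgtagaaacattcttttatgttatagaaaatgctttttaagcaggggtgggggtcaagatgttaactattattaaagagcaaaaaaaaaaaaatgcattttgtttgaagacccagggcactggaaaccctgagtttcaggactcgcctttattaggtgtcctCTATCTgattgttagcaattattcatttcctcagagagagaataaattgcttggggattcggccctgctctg
Il13: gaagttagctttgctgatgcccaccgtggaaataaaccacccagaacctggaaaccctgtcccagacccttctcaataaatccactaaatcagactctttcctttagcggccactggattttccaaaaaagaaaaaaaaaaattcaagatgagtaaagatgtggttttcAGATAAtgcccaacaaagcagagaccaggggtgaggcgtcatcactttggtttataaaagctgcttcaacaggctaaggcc
Il1rl1: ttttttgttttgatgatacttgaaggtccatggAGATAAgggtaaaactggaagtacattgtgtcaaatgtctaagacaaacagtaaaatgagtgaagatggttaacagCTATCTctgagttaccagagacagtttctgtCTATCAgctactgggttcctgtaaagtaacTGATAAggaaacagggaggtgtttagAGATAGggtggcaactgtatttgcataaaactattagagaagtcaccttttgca
Il5 held 1 match, 72 bases before its start, and Il13 held 1, 81 bases before its start. Il1rl1 held 5, at 217, 141, 110, 80 and 54 bases before its start.

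Type 17 genes did not share 1 direction. Of 21 members tested in the ILC3 and type 17 list, 3 were higher and 2 lower at an unadjusted p under 0.05, DESeq2 called 2 in each direction, and the median log2 fold change was −0.15. Il23r encodes the receptor that senses IL-23, and had 63.3 and 103 CPM in WT against 225 and 244 CPM in the knockout. Both knockout libraries were well above both WT libraries, with a log2 fold change of 1.497 ± 0.303 (SE; DESeq2 adjusted p 0.00152, and 0.0814 without KO_2). Il1r1, the receptor for IL-1 that was singled out after its values were seen, had 17.1 and 25.3 CPM in WT and 51.8 and 48.3 CPM in the knockout (log2 fold change 1.24 ± 0.36), and DESeq2 did not call it (adjusted p 0.265). Tnfsf11 encodes RANKL, a cytokine of lymphoid tissue inducer cells, and had 19.006 and 13.94 CPM in WT and 75.1 and 59.3 CPM in the knockout. Its log2 fold change was 2.03 ± 0.35 (DESeq2 adjusted p 0.00246), and the call was lost without WT_2, KO_1 or KO_2 (adjusted p up to 0.208).

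Il22 and Il17a were lower in both knockout libraries. Il22, which acts on keratinocytes, had 66.7 and 311 CPM in WT and 2.66 and 13.5 CPM in the knockout. The WT libraries differed more than 4-fold from each other and the lower of them was still far above both knockout libraries. The log2 fold change was −4.57 ± 1.14 (DESeq2 adjusted p 6.35e-06), and without WT_2 the DESeq2 adjusted p was 0.130. Il17a had 142 and 224 CPM in WT and 87.7 and 65.5 CPM in the knockout (log2 fold change −1.26 ± 0.32, DESeq2 adjusted p 0.0350), a call lost without WT_2, KO_1 or KO_2 (adjusted p up to 0.610). Il17f overlapped between genotypes: 77.6 and 702 CPM in WT against 114 and 98.9 CPM in the knockout, so that its negative log2 fold change rests on WT_2 and became 0.46 without it. Without WT_1, DESeq2 called it lower (adjusted p 8.92e-17). Kit, the stem cell factor receptor found on many ILC3s, had 110 and 176 CPM in WT and 91.0 and 85.1 CPM in the knockout.

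Genes of ILC1s and NK cells were the ILC group with the lowest median, −1.66 over 23 members tested. At an unadjusted p under 0.05, 8 were lower and 2 higher, against 4.17% and 2.78% of all autosomal genes tested. DESeq2 called 3 lower and 0 higher. Fold bounds here and below cover only chance in counting the pooled reads of a genotype, and not the spread between its libraries. Tbx21 encodes T-bet and had 3.22 and 6.50 CPM in WT and no counts in either knockout library. Set against 3 counts over the knockout group, it was at least 63.0-fold lower (DESeq2 adjusted p 0.0249, up to 0.179 with 1 library left out), at a WT level of 154 counts in all. Itga2 (CD49b), an integrin of NK cells, had 13.4 and 9.75 CPM in WT and 0.456 and 0.756 CPM in the knockout (log2 fold change −4.25 ± 1.05, DESeq2 adjusted p 0.0143, up to 0.650 with 1 library left out). Ifng had 7.15 and 8.25 CPM in WT, 2.16 CPM in KO_1 and no counts in KO_2, and DESeq2 called it lower without KO_1 only (adjusted p 0.0362).

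Cytotoxic genes did not share 1 direction. The following were singled out after their values were seen. Fcer1g, an adaptor of activating receptors, had 54.9 and 43.9 CPM in WT and 17.6 and 8.45 CPM in the knockout, and Prf1 (perforin) had 1.61 and 1.31 CPM against no counts. Gzmb (granzyme B) was higher in both knockout libraries, with 157 and 217 CPM against 60.0 and 103 CPM. Fasl, which triggers apoptosis in target cells and was named by the list rule, had 11.1 and 4.81 CPM in WT and 27.8 and 27.6 CPM in the knockout. The abundant NK-type transcripts differed less: Nkg7 had 738 and 805 CPM in WT and 534 and 537 CPM in the knockout, and Klrk1 (NKG2D) had 684 and 797 CPM against 668 and 579 CPM. DESeq2 called none of these 6 genes (adjusted p 0.0648 for Fcer1g, 0.0763 for Gzmb, and not assigned for Prf1), though without 1 library it called Fcer1g (adjusted p 0.0269 without KO_1) and Gzmb (adjusted p 0.0111 without WT_2).

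**Figure D2:**
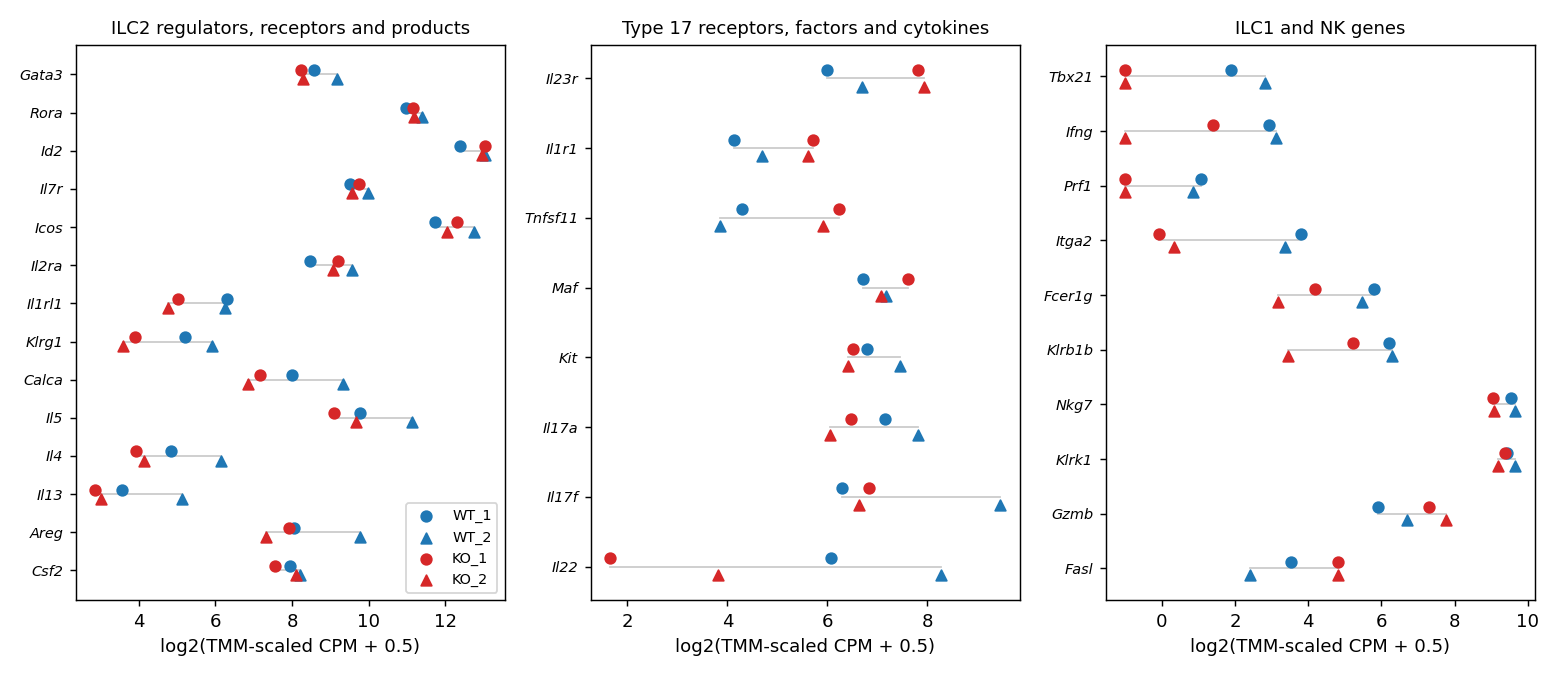
Level of ILC genes in each library as log2(CPM + 0.5), with wild type in blue, the knockout in red, circles for replicate 1 and triangles for replicate 2. Il1rl1 and Klrg1 are lower and Il23r, Il1r1 and Tnfsf11 higher in both knockout libraries, while for Il5, Il13, Areg and Il22 the wild-type libraries lie far apart.

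With all 4 libraries, genes of MHC class II antigen presentation formed the group with the lowest median of all lists with 5 or more members tested. Activated ILC2s and ILC3s can carry MHC class II and present peptides to helper T cells, as dendritic cells and B cells do. Of 11 list members, 8 were tested, all 8 had negative log2 fold changes, and 6 were lower both at an unadjusted p under 0.05 and by DESeq2. Over all autosomal genes the shares lower were 4.17% at that p and 1.06% by DESeq2. The median log2 fold change was −1.79, and it stayed between −1.99 and −1.61 when each library was left out. Some other lists reached lower medians in such fits, among them ILC1 and NK (−1.66, down to −2.73) and keratinocyte (−1.35, down to −2.73). The summed level of the list was 1069 and 1209 CPM in WT and 350 and 433 CPM in the knockout.

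The invariant chain gene Cd74, whose product escorts class II molecules to the endosome, had 695 and 940 CPM in WT and 274 and 348 CPM in the knockout. Its log2 fold change was −1.39 ± 0.25 (SE), and DESeq2 called it with all 4 libraries (adjusted p 3.27e-05) and without each in turn (adjusted p up to 0.0147). H2-Eb1, the beta chain of I-E, had 73.5 and 70.7 CPM in WT and 22.0 and 24.5 CPM in the knockout (log2 fold change −1.63 ± 0.28, DESeq2 adjusted p 0.00898, up to 0.347 with 1 library left out). The next 4 genes were singled out after their values were seen. H2-Aa, the alpha chain of I-A, had 110 and 65.7 CPM in WT and 18.3 and 8.11 CPM in the knockout, and H2-Ab1, its beta chain, had 127 and 110 CPM against 22.2 and 39.4 CPM. H2-Ob, a chain of the peptide-loading modulator, had 13.3 and 9.88 CPM in WT and no counts in the knockout, at least 149-fold lower against 3 counts over the group. H2-DMb1, a chain of the peptide-loading catalyst, had 22.2 and 2.69 CPM in WT and no counts in the knockout. DESeq2 called these 4 genes with adjusted p of 0.000443, 0.00158, 8.37e-05 and 0.000411, and without 1 library these reached 0.162 (H2-Aa, without WT_1), 0.117 (H2-Ab1) and 0.0415 (H2-Ob). Without WT_1, DESeq2 assigned H2-DMb1 no call. H2-DMa and H2-Oa, the partner chains and the remaining members tested, overlapped between genotypes.

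The class II genes lie together on chromosome 17. In the span from 34092340 to 34340229 (mm10), 13 genes were tested and 7 of them (53.8%) were lower at an unadjusted p under 0.05, with none higher. Beside H2-DMb1, H2-Ob, H2-Ab1, H2-Aa and H2-Eb1 these were the immunoproteasome genes, singled out after their values were seen: Psmb9 (34.2 and 28.9 CPM in WT, 12.4 and 13.5 CPM in the knockout) and Psmb8 (223 and 163 CPM in WT, 94.0 and 122 CPM in the knockout). Cd74 is on chromosome 18. Ciita, which encodes the class II transactivator, had too few counts to be tested, with no counts in WT_1, WT_2 and KO_1 and 7.35 CPM in KO_2. Other cells that carry class II left a mixed picture. Levels of their single markers are given here without TMM scaling. Of 26 myeloid markers, 13 had no counts in any library (among them the defining genes Itgax, Csf1r, Adgre1, Clec9a and Cd207). The dendritic cell gene Xcr1 had 67.5 and 148 CPM in WT and 203 and 186 CPM in the knockout. The macrophage gene Cd68 had 3.30 and 7.75 CPM in WT and 16.2 and 9.06 CPM in the knockout. Of 7 myeloid markers tested, 4 were higher and 2 lower in both knockout libraries than in both WT libraries. Over all autosomal genes tested these shares were 16.8% and 19.4%. Of 14 B cell markers, 6 had no counts (Ms4a1 among them). Igkc had 21.2 and 44.7 CPM in WT and 30.9 and 2.79 CPM in the knockout. Ighm had 15.2 and 16.994 CPM in WT and 9.68 and 8.86 CPM in the knockout. The summed levels were 141 and 409 CPM (WT) and 318 and 336 CPM (knockout) for the myeloid list, and 46.7 and 82.3 CPM (WT) and 59.0 and 13.3 CPM (knockout) for the B cell list. Their part in the class II result was not tested.

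**Figure D3:**
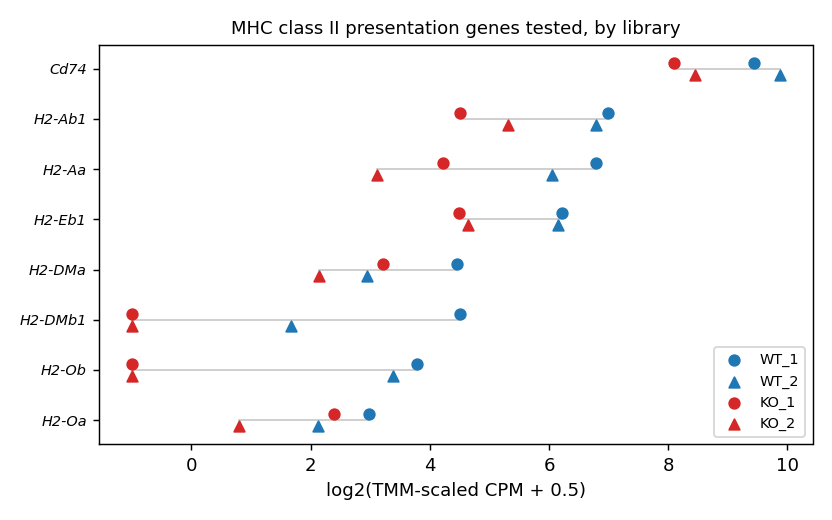
Level of the 8 tested MHC class II presentation genes in each library as log2(CPM + 0.5), with wild type in blue and the knockout in red. Both knockout libraries lie below both wild-type libraries for Cd74, H2-Ab1, H2-Aa, H2-Eb1, H2-DMb1 and H2-Ob, and the genotypes overlap for H2-DMa and H2-Oa.

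Class II promoters carry a conserved module that ends in a Y box, an inverted CCAAT element. The spelling ATTGG was searched on both strands in the same 300-base windows. It lay in 37.3% of the 31396 autosomal promoters and in 6 of the 7 promoters of the tested class II list genes with an entry (85.7%). The 250 bases before the start of H2-Aa (chr17:34287824-34288073, minus strand), H2-Eb1 (chr17:34305617-34305866, plus strand) and H2-DMb1 (chr17:34152941-34153190, plus strand) are printed with the matches in capitals, because these 3 genes were lower together.
H2-Aa: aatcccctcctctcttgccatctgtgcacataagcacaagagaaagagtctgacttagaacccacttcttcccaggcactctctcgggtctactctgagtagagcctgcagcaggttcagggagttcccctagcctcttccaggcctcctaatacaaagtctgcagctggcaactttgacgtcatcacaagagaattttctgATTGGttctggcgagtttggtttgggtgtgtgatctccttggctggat
H2-Eb1: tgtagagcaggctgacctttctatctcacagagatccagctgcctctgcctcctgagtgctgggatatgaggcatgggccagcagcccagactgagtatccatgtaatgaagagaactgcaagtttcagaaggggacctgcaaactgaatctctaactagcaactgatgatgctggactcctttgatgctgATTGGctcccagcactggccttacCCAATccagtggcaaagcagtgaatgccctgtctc
H2-DMb1: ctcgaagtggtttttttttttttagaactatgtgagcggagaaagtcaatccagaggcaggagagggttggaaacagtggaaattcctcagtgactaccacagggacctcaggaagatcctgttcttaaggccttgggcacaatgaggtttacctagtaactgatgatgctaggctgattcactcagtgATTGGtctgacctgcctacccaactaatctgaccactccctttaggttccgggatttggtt
The ATTGG spelling stood 48 bases before the start of H2-Aa, 59 bases before that of H2-Eb1 and 61 bases before that of H2-DMb1. H2-Eb1 held a further match in the opposite direction, 35 bases before its start.

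Chemokines and their receptors held the gene with the largest difference relative to its spread among genes named by the rule. Ccr1, a receptor for CCL3, CCL5 and related chemokines (chromosome 9, 123962124 to 123968692, minus strand, mm10), had 82.3 and 95.6 CPM in WT and 6.39 and 7.76 CPM in the knockout. The libraries of each genotype were close together and far from the other genotype, with a log2 fold change of −3.65 ± 0.32 (SE; DESeq2 adjusted p 9.57e-14). Without each library in turn it ranged from −3.80 to −3.51 and the DESeq2 adjusted p reached at most 0.00133. Ccr3, the eotaxin receptor, lies near Ccr1 (chromosome 9, 124021972 to 124031689) and was singled out for its opposite pattern: no counts in WT and 9.67 and 7.76 CPM in the knockout, at least 94.0-fold higher against 3 counts over the WT group (DESeq2 adjusted p 0.00110, and 0.0714 without KO_1). Ccl20, which draws CCR6-positive cells to epithelium, had 29.5 and 39.8 CPM in WT and 4.36 and 3.37 CPM in the knockout (log2 fold change −3.16 ± 0.51, DESeq2 adjusted p 0.000411, up to 0.306 without a WT library). Cxcl10, an interferon-induced chemokine, had 41.7 and 15.6 CPM in WT and 101 and 94.4 CPM in the knockout, and DESeq2 called it only without WT_1 (adjusted p 0.000130, against 0.0507 with all 4 libraries). S1pr1, the receptor by which lymphocytes leave tissue, had 52.8 and 79.8 CPM in WT and 138 and 181 CPM in the knockout (log2 fold change 1.27 ± 0.31, DESeq2 adjusted p 0.0295, up to 0.478 with 1 library left out). Tnfrsf4 encodes OX40 and had 433 and 474 CPM in WT and 249 and 253 CPM in the knockout (log2 fold change −0.85 ± 0.19, DESeq2 adjusted p 0.00673, up to 0.231 with 1 library left out).

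A pair of Notch target genes went in opposite directions. Notch receptors, once cut at the membrane, switch on the HES and HEY repressors. Hes1 had 176 and 167 CPM in WT and 55.6 and 58.7 CPM in the knockout, a log2 fold change of −1.59 ± 0.22 (SE) that DESeq2 called with all libraries (adjusted p 3.76e-05) and without each in turn (adjusted p up to 0.0497). Hey1 had 27.2 and 25.1 CPM in WT and 87.3 and 132 CPM in the knockout (log2 fold change 2.07 ± 0.32, DESeq2 adjusted p 0.000143, and 0.140 without KO_2). For both genes the WT libraries were nearly equal. The other 25 of 27 members tested in the Notch and TGF-beta list had an unadjusted p over 0.05, and the median of the list was −0.06.

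The other genes with the smallest p that were higher in the knockout included a carrier, a lectin and some nuclear factors. Slc15a2, a peptide transporter, had 25.2 and 20.2 CPM in WT and 108 and 111 CPM in the knockout (log2 fold change 2.27 ± 0.27, DESeq2 adjusted p 9.50e-07, at most 0.0160 with 1 library left out). Lgals3 encodes galectin-3, a lectin that binds cell-surface sugars, and had 1876 and 1476 CPM in WT and 3809 and 3581 CPM in the knockout (log2 fold change 1.14 ± 0.20, DESeq2 adjusted p 1.82e-06, at most 0.00999 with 1 library left out). Smarca5, a chromatin remodelling ATPase, had 117 and 110 CPM in WT and 253 and 281 CPM in the knockout, and Nol11, a ribosome biogenesis factor, had 24.2 and 21.9 CPM against 69.2 and 80.3 CPM. Rif1, a DNA replication and repair factor, had 27.2 and 25.6 CPM in WT and 73.1 and 77.9 CPM in the knockout. Gbp9 (a guanylate-binding protein gene), Neto2 and Map9 were higher in both knockout libraries too, with log2 fold changes of 1.37 ± 0.24, 2.38 ± 0.44 and 4.06 ± 0.79. DESeq2 called these 6 genes with all libraries, and each call was lost without at least 1 library: Smarca5 without KO_2 (adjusted p 0.109), Map9 without KO_1 (0.459) and the other 4 without any 1 library. Gclc, the rate-limiting enzyme of glutathione synthesis and singled out after its values were seen, had 150 and 188 CPM in WT and 359 and 622 CPM in the knockout (log2 fold change 1.54 ± 0.33, DESeq2 adjusted p 0.000493, and 0.102 without KO_2).

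Lower genes of the same rank included an alarmin, a protease and a chromatin factor. Il33 is made by keratinocytes, fibroblasts and endothelium. It had 48.2 and 20.004 CPM in WT and no counts in either knockout library, at least 437-fold lower against 3 counts over the group (DESeq2 adjusted p 8.61e-09, at most 0.000323 with 1 library left out). The summed keratinocyte markers were 709 and 942 CPM in WT and 388 and 664 CPM in the knockout, and the summed fibroblast markers were 4478 and 1339 CPM in WT and 5054 and 3587 CPM in the knockout. Their part in the Il33 result was not tested. Ctsw, a cathepsin of NK cells and cytotoxic lymphocytes, had 360 and 359 CPM in WT and 136 and 109 CPM in the knockout (log2 fold change −1.55 ± 0.22, DESeq2 adjusted p 4.32e-07, at most 0.00462 with 1 library left out). Setd5, a chromatin regulator, had 299 and 207 CPM in WT and 89.8 and 73.8 CPM in the knockout (log2 fold change −1.63 ± 0.28, DESeq2 adjusted p 0.000111, and 0.0692 without WT_1). Ldlrad4, an inhibitor of TGF-beta signalling, had 162 and 145 CPM in WT and 40.6 and 56.9 CPM in the knockout (log2 fold change −1.65 ± 0.27, DESeq2 adjusted p 0.000603, and up to 0.0927 with 1 library left out). Of 133 genes named by the rule or singled out, DESeq2 called 54 with all 4 libraries, against 1.63% of all autosomal genes. Apart from the preset ILC set, these genes were picked by their p or their values in these same libraries. The number called among them follows from that choice and is no result.

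Glycolysis and cell cycle genes had negative log2 fold changes more often than positive ones, and few passed a test. Over all 12844 autosomal genes tested, 6611 were negative. At an unadjusted p under 0.05, 4.17% of all were lower and 2.78% higher. Of 31 glycolysis and hypoxia genes tested, 26 had negative log2 fold changes, 7 were lower and 0 higher at an unadjusted p under 0.05, and the median was −0.58 (−0.72 to −0.26 with each library left out). DESeq2 called 1, Tpi1, which encodes triosephosphate isomerase. Tpi1 had 218 and 321 CPM in WT and 81.3 and 76.3 CPM in the knockout (log2 fold change −1.77 ± 0.27, DESeq2 adjusted p 6.35e-06, at most 0.0406 with 1 library left out). Of 40 cell cycle genes tested, 31 had negative log2 fold changes, 5 were lower and 1 higher at an unadjusted p under 0.05, and the median was −0.43. The topoisomerase gene Top2a had 53.9 and 60.1 CPM in WT and 19.995 and 10.4 CPM in the knockout (DESeq2 adjusted p 0.0330, up to 0.448 with 1 library left out). The inducible heat shock gene Hspa1b had 154 and 29.8 CPM in WT and 10.6 and 7.70 CPM in the knockout, and its near-identical copy Hspa1a, singled out as such, had 153 and 21.9 CPM against 8.63 and 9.62 CPM. Reads of this pair may be split between the copies. Both were highest in WT_1, and without WT_1 neither was called by DESeq2 (adjusted p 0.883 and 0.9999). The interferon response list was balanced, with 34 members tested, 4 higher and 2 lower at an unadjusted p under 0.05, and a median of 0.01. Its DESeq2 calls were 3 higher and 0 lower. Ifit1, an antiviral RNA-binding protein gene, had no counts in WT and 14.8 and 7.56 CPM in the knockout, at least 127-fold higher against 3 counts over the WT group (DESeq2 adjusted p 0.000240, and 0.0774 without KO_1). Rtp4, another interferon-induced gene, had 14.045 and 7.564 CPM in WT and 37.0 and 53.3 CPM in the knockout (DESeq2 adjusted p 0.0413, up to 0.660 with 1 library left out). Ifih1 encodes the RNA sensor MDA5 and was singled out after its values were seen. It had 0.515 and 0.938 CPM in WT and 15.6 and 7.42 CPM in the knockout (DESeq2 adjusted p 0.0363, up to 0.794 with 1 library left out). Nuclear genes of oxidative phosphorylation (median −0.16, 57 tested, 1 lower) and cytosolic ribosomal protein genes (median 0.00, 72 tested, 0 in either direction) were near the level of all genes.

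**Figure D4:**
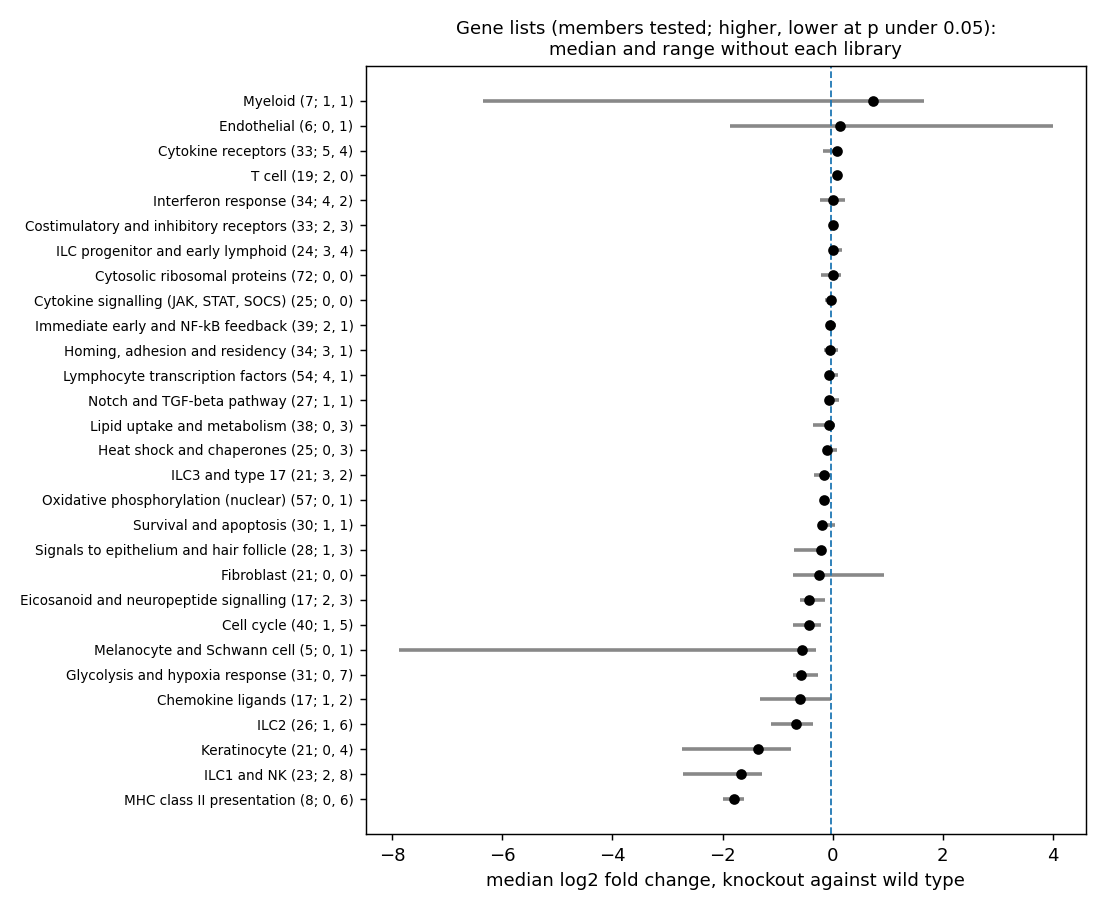
Median log2 fold change of the knockout against wild type (x axis) for each gene list with 5 or more members tested, with the number tested and the numbers higher and lower at an unadjusted p under 0.05 in brackets. Grey bars span the medians with each library left out, and the dashed line is the median of all autosomal genes tested, −0.02. The MHC class II list has the lowest median with all libraries, −1.79, and a narrow span, whereas the myeloid and endothelial spans cross 0. Some other spans reach lower medians.

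Markers of other cells were checked in the same libraries. The neutrophil transcript S100a8 was confined to WT among the 4 libraries apart from 1 count, and mostly to WT_2 (9.21 CPM in WT_1, 143 CPM in WT_2, 0.041 CPM in KO_1 and none in KO_2). Cd14, also of the myeloid list, went the other way. It had 2.26 and 4.38 CPM in WT and 22.9 and 17.9 CPM in the knockout (DESeq2 adjusted p 0.0765). Of 7 myeloid markers tested, 1 was higher and 1 lower at an unadjusted p under 0.05. Their median was 0.73 (−6.36 to 1.65 with each library left out). Epcam, a marker of Langerhans cells and epithelium, had 49.3 to 120 CPM per library without TMM scaling. Of 21 keratinocyte markers tested, 4 were lower and 0 higher at an unadjusted p under 0.05, DESeq2 called 1, and the median was −1.35. Over all autosomal genes tested, 4.17% were lower and 2.78% higher at that p. Sfn, the most abundant of the keratinocyte markers, overlapped between genotypes. It had 285 and 344 CPM in WT and 275 and 354 CPM in the knockout without TMM scaling. Krt14, the keratin of basal keratinocytes singled out after its values were seen, had 157 and 151 CPM in WT, no counts in KO_1 and 76.4 CPM in KO_2, and Krt16, a keratin of stressed epidermis, had 10.3 and 24.4 CPM in WT, none in KO_1 and 0.137 CPM in KO_2. Fibroblast markers (21 tested, 0 in either direction, median −0.25) were lowest in WT_2. The endothelial sum was at most 28.8 CPM in any library. Whether these transcripts have a part in the differences of Areg, Il22 or Ccl20 was not tested.

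Transcripts of T cell receptor genes, which ILCs can also express from unrearranged loci, were present in all libraries. The T cell list summed to 3127 and 3662 CPM in WT and 3688 and 3716 CPM in the knockout. Of 19 members tested, 2 were higher and 0 lower at an unadjusted p under 0.05, against 2.78% and 4.17% of all autosomal genes tested. Trac had 142 and 216 CPM in WT and 300 and 337 CPM in the knockout (DESeq2 adjusted p 0.142, and 0.0229 without WT_2), and Trdc had 12.1 and 9.38 CPM against 27.2 and 31.5 CPM. Tcrg-C1, a constant gene of the γ chain locus with close copies, was singled out after its values were seen and had 56.1 and 41.0 CPM in WT and 127 and 129 CPM in the knockout (log2 fold change 1.40 ± 0.27, DESeq2 adjusted p 0.00669, up to 0.200 with 1 library left out). Cd3e, singled out as a T cell marker, overlapped between genotypes (7.02 and 18.3 CPM in WT, 17.7 and 7.35 CPM in the knockout), and Cd5 and Foxp3 had no counts. Other members had more reads: without TMM scaling, Cd3g had 275 and 517 CPM in WT and 339 and 370 CPM in the knockout. On that scale Cd3d had 90.4 and 72.1 CPM against 89.5 and 77.3 CPM, and Cd4 had at most 3.99 CPM.

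The differences were spread over the chromosomes. The share of tested genes with an unadjusted p under 0.05 ran from 5.33% on chromosome 15 to 8.61% on chromosome 13. Within 10 Mb of Gata3, 65 genes were tested and 5 (7.69%) had such a p, 2 higher and 3 lower (Frmd4a, Ucma, Mindy3, Pter and Commd3, named here after their values were seen). Lower genes at that threshold were expressed at a median of 4.60 CPM, against 13.6 CPM over all autosomal genes tested and 22.5 CPM for the higher ones, and 224 of the 536 lower genes had no counts in 1 genotype.

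The 10 fate-map libraries are from skin ILCs on the C57BL/6 background, positive or negative for the fate-map reporter. The labels give their genotype by this reporter and by Gata3flox, and state tamoxifen injection for WT and Gata3fl/flCreERT2 mice only. The effect of the tamoxifen knockout (knockout against WT, both given the drug) was set against the effect of the floxed Gata3 label in these libraries. Their reporter-positive and reporter-negative skin ILCs came from intact (n = 2 each) and Gata3flox mice (n = 3 each). No control is shared between these sets. The fate-map libraries were also sorted differently and counted on another version of the gene models. Levels are therefore to be read within each set. In 1 fit of all 14 bulk libraries, the difference of the effects was called by edgeR for 45 of 17643 autosomal genes (0.255%) against reporter-negative cells, 24 higher and 21 lower, and for 108 (0.612%) against reporter-positive cells, 20 higher and 88 lower. The Gata3flox effect itself was called for 269 genes (1.52%) in reporter-negative and 172 genes (0.975%) in reporter-positive cells. Gata3 itself had a log2 fold change of −0.65 ± 0.38 in the tamoxifen knockout, −0.19 ± 0.34 with the floxed label (reporter-negative) and −0.02 ± 0.34 (reporter-positive). The floxed label effect on it was not called (edgeR adjusted p 0.839 and 1). Gata3 gave a difference of −0.46 ± 0.51 and −0.63 ± 0.51 (SE) in log2 fold change, neither called (edgeR adjusted p 0.777 and 0.651). Il5 had a log2 fold change of −1.20 ± 0.81 in this fit for the tamoxifen knockout, against −2.62 ± 0.73 (reporter-positive) and 0.37 ± 0.73 (reporter-negative) with the floxed label. Its differences were not called (edgeR adjusted p 0.606 and 0.562). Il1rl1 had −1.40 ± 0.57 in the tamoxifen knockout, against −0.64 ± 0.51 (reporter-positive) and −0.32 ± 0.50 (reporter-negative) with the floxed label. Its differences were not called either (edgeR adjusted p 0.755 and 0.565).

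Of the 8 class II genes tested, 3 differed by edgeR between the tamoxifen knockout and the reporter-positive comparison (H2-Ab1, H2-Eb1 and H2-DMb1), as did Hes1 and Hey1. The other class II genes did not pass, with adjusted p from 0.0520 for Cd74 to 0.716 for H2-Oa. Against reporter-negative cells none of these 10 genes was called (adjusted p 0.0802 for H2-DMb1, 0.142 for Hey1, 0.166 for H2-Ab1 and 0.434 for Hes1). H2-Ab1 was lower in the tamoxifen knockout (−1.94 ± 0.50) and higher with the floxed label in reporter-positive cells (2.36 ± 0.48). Its level in those cells was 26.1 and 24.4 CPM in intact and 105, 219 and 65.0 CPM in Gata3flox libraries. The difference of −4.30 ± 0.69 had an edgeR adjusted p of 0.0205. H2-Eb1 gave −3.08 ± 0.51 (edgeR adjusted p 0.0244) and Hes1 gave −3.18 ± 0.56 (edgeR adjusted p 0.0309), again lower in the tamoxifen knockout and higher with the floxed label. Hey1 gave 3.21 ± 0.59 (edgeR adjusted p 0.0367) and Tnfsf11 gave 3.58 ± 0.49 (edgeR adjusted p 0.0134), higher in the tamoxifen knockout and lower with the floxed label. Tnfsf11 had 76.4 and 50.7 CPM in intact and 17.6, 27.7 and 19.7 CPM in Gata3flox reporter-positive libraries. The same fit, with its spread taken from all 14 libraries, called 17 autosomal genes for the tamoxifen knockout (0.0964%), 3 higher and 14 lower. Setd5, Tpi1, Ldlrad4, Tbx21, Smarca5 and Nol11 were among them. The gene model with the lowest adjusted p was Gm7993, with 303 and 142 CPM in WT and 1.91 and 2.54 CPM in the knockout, named here after its values were seen.

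**Figure D5:**
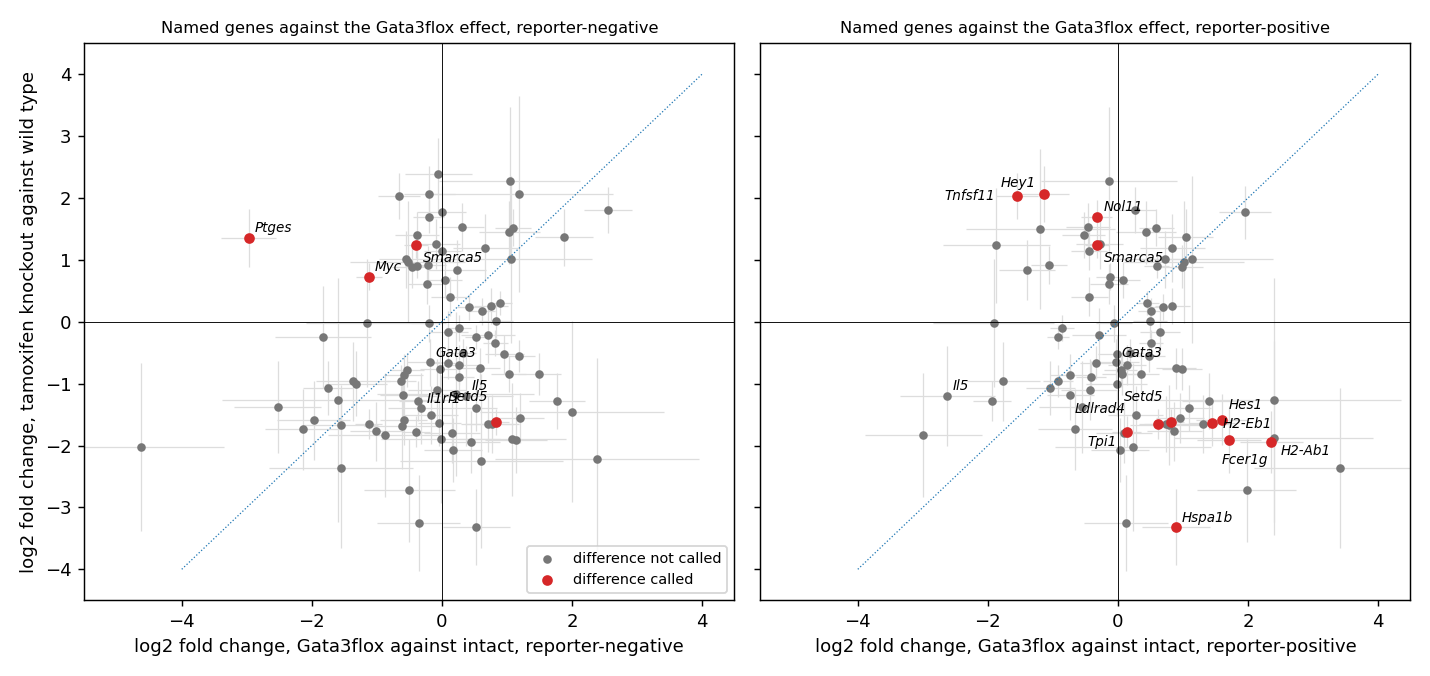
Log2 fold change of the tamoxifen knockout against wild type (y axis) and of Gata3flox against intact libraries (x axis) in reporter-negative (left, 98 genes) and reporter-positive cells (right, 88 genes), for named genes with a mean of at least 5 CPM in each group, with bars of 1 SE; the dotted line marks equal effects. Red points are genes whose 2 effects differed by edgeR (4 on the left, 12 on the right). On the right all 12 lie to the lower right or the upper left, where the fitted effects have opposite signs. Picking genes by the difference favours such positions. The sign of the floxed label effect is not settled for all of them (Tpi1 0.14 ± 0.22).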

How the data were processed

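The 4 libraries hold raw read counts per gene model. Reads were aligned with HISAT2 2.1.0 to mm10 and counted with featureCounts from Subread, per the submitters' processing notes, and the deposited counts were used as they stand. Counting was per whole gene, so isoforms and deleted exons are not separated. The members and gene lists were chosen with earlier results of these data known. Gene names came from an ID table (37 gene models had none).

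Genes with low counts were removed with filterByExpr, libraries were scaled with TMM factors, and all 13272 remaining genes were fitted together in edgeR 4.0.16 (quasi-likelihood test, Benjamini-Hochberg adjustment, 2 residual degrees of freedom) under R 4.3.3. Adjusted p-values cover all genes. DESeq2 1.42.0 was the alternative. Differences from the floxed label came from an edgeR fit of 14 libraries. The procedure was tested on simulated data. Named genes were a preset ILC set, up to 2 members of each list with the smallest p and, since fewer than 20 genes were called, up to 10 genes in each direction with the smallest p (mean of at least 10 CPM, no overlap), none of which passed. Further genes are marked where they appear, and some genes of the rule and the lists are not reported here. A fold against a genotype without counts is a bound set at 3 counts over the group. It covers chance in counting pooled reads only and is no bound on the genotype difference. Libraries of 1 genotype can differ in this way too: Krt14 had no counts in KO_1 and 76.4 CPM in KO_2.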

Additional observations from a re-analysis of the deposited data

Results flagged for a closer look

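The effect of the tamoxifen knockout was tested against the effect of the floxed Gata3 label in the fate-map libraries. Differences in log2 fold change (tamoxifen knockout minus floxed label) are given here for the named genes for which edgeR called the 2 effects different. Against reporter-negative cells these were Ptges at 4.33, Setd5 at −2.46, Smarca5 at 1.63, Tbx21 at −11.11 and Myc at 1.85. Against reporter-positive cells, genes lower in the tamoxifen knockout relative to the floxed label included the adaptor Fcer1g at −3.62, Setd5 at −2.45, Tpi1 at −1.91 and Hes1 at −3.18. Likewise lower were H2-Ab1 at −4.30, H2-Eb1 at −3.08, Hspa1b at −4.21 and Ldlrad4 at −2.27. Genes higher in that sense were Hey1 at 3.21, Smarca5 at 1.56, Tnfsf11 at 3.58 and Nol11 at 2.03. The differences of Tbx21 in both populations (−11.11 and −10.26) and, against reporter-positive cells, of Ptges (−7.18), Krt16 (−14.73), H2-DMb1 (−11.33) and Il33 (−17.90) rest on a group with no or almost no counts, so their size depends on the prior count.

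Both differences of a gene contain the same tamoxifen knockout effect, so their likeness between populations is no result. The level of Setd5 in the 14-library scaling was 310 and 217 CPM in WT and 93.8 and 76.7 CPM in the tamoxifen knockout. Within the fate-map set the 4 intact libraries had 116 to 129 CPM and the 6 Gata3flox libraries 191 to 243 CPM. The sets differ in sort and in gene models, so their levels are not compared with each other. Ptges, which encodes a prostaglandin E synthase, had 24.3 and 25.8 CPM in WT and 72.9 and 55.3 CPM in the knockout, and 112 and 98.2 CPM in intact against 7.08 to 16.9 CPM in Gata3flox reporter-negative libraries. In those same libraries, without TMM scaling, the summed fibroblast markers were 11480 and 8675 CPM in intact and 635 to 1406 CPM in Gata3flox. The summed keratinocyte markers were 5205 and 2819 CPM against 645 to 888 CPM. The part of these cells in the differences was not tested.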

How the results depend on the processing

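With 2 libraries a genotype, counts of calls moved with the tool and the libraries. For the knockout, edgeR called 0 autosomal genes with RLE, upper-quartile or library-size scaling, with a mean CPM of at least 5, with autosomal genes only, with a robust fit, with the replicate block and without each library. It called 6 without a filter and 17 with all 14 libraries, and DESeq2 called 193. DESeq2 without each library in turn, chosen after seeing the data, called 114 to 233 genes. Genes at an unadjusted p under 0.05 numbered 534 with the mean CPM filter, 1551 with 14 libraries, 491 with the replicate block and 627 to 940 without each library. Scaling moved their split from 357 higher and 536 lower to 341 and 563 with library size and to 377 and 529 with the upper quartile, and the median of all genes by under 0.1. Same-numbered deviations had a Pearson r of 0.0107 across genes. This value cannot show whether the replicate numbers pair the samples, because WT_1 also stood apart in sex-linked transcripts and a shared preparation need not shift all genes alike. The difference from the floxed label was called for 765 genes with DESeq2, 681 without a filter, 0 with the replicate block and 26 to 65 without each library in reporter-negative cells, and for 1060, 851, 1 and 61 to 97 in reporter-positive cells. The cause was not tested.

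The sign changed for Cd3e (0.0018 without a filter, 0.0123 with the replicate block) and Il17rb (0.62 with the replicate block). Without each library, log2 fold changes ran from −0.52 to 0.054 for Csf2, −1.13 to 2.46 for Il17rb, −0.43 to 0.70 for Il2ra, −0.32 to 0.16 for Il7r, −0.57 to 0.45 for Icos, −0.22 to 0.21 for Rora, −0.026 to 0.62 for Id2, −1.45 to 0.66 for Zbtb16, −2.72 to 0.47 for Il17f, −1.75 to 0.38 for Pecam1 and −0.78 to 0.85 for Cd3e. Genes with a few counts per library are limited by depth.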

Other observations

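Surface receptors outside the preset groups also separated the genotypes, and all of the following were singled out after their values were seen. Cd7, an early lymphoid receptor, had 172 and 188 CPM in WT and 96.3 and 62.6 CPM in the knockout (DESeq2 adjusted p 0.0313, up to 0.371 with 1 library left out). Cd48, a ligand of the SLAM family, had 222 and 262 CPM in WT and 154 and 106 CPM in the knockout, and Slamf1, a receptor of that family, had 48.6 and 50.6 CPM against 122 and 77.3 CPM. DESeq2 called neither. Ifngr1, a chain of the interferon gamma receptor, was higher in both knockout libraries, with 2745 and 3469 CPM against 1857 and 2041 CPM (DESeq2 adjusted p 0.0342, up to 0.654 with 1 library left out). The tetraspanin gene Cd9 had 448 and 286 CPM in WT and 689 and 671 CPM in the knockout (DESeq2 adjusted p 0.0436, up to 0.259 with 1 library left out).

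Among transcription factors, Lmo4 and Nr4a2, which the naming rule picked, were higher in both knockout libraries. Lmo4, a LIM-only adaptor of transcription factors, had 256 and 289 CPM in WT and 503 and 523 CPM in the knockout (DESeq2 adjusted p 0.00182, up to 0.166 with 1 library left out). Nr4a2, an orphan nuclear receptor induced by activation, had 214 and 212 CPM against 364 and 435 CPM (DESeq2 adjusted p 0.00720, up to 0.361 with 1 library left out). Zeb2, a repressor active in terminal NK cells and singled out, had 38.0 and 49.5 CPM in WT and 17.1 and 12.026 CPM in the knockout, which DESeq2 did not call (adjusted p 0.130).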
